A study of Homo sapiens with 5 samples.

Results

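The loci of 5 genes that carry SMAD signals, SMAD1, SMAD2, SMAD3, SMAD4 and SMAD5, were described by the SMAD2 ChIP-seq peak summits listed at each of them. A summit belonged to a locus if it lay inside the gene's span on hg19 or within 20 kb of either end. The spans were chr4:146402000-146481000 for SMAD1, chr18:45359000-45458000 for SMAD2, chr15:67358000-67488000 for SMAD3, chr18:48556000-48612000 for SMAD4 and chr5:135468000-135519000 for SMAD5, each rounded to 1 kb. Because of this rounding, a distance under 1 kb from a 5′ edge does not place a summit inside or outside the gene. The windows covered 615 kb in all and held 75 summits over 4 libraries. Chained at gaps of up to 200 bp, these summits formed 36 regions, of 115321 regions in the whole series. All libraries came from T47D, an estrogen receptor-positive luminal breast cancer cell line. Of these, 2 libraries were made from cells treated with palbociclib at 1 µM for 24 h and with activin A at 50 ng/ml for 1.5 h, called palbociclib libraries here. A further 2 libraries were made from cells given the same activin A treatment alone, called activin libraries. An input library from untreated cells served peak calling and was not analysed here. Every ChIP library came from activin-treated cells of 1 line, so the values do not show which summits depend on activin. The labels do not say whether the replicates were separate cultures, so their spread may be technical.

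SMAD proteins carry signals of the TGF-β family from cell-surface receptors to the genome. SMAD2 and SMAD3 are phosphorylated by the activin and TGF-β receptors, SMAD1 and SMAD5 by the receptors for bone morphogenetic proteins, and SMAD4 is the common partner that joins either kind in the nucleus. SMAD4 and SMAD3 contact short DNA motifs directly, whereas the main form of SMAD2 reaches DNA largely through its partners. Palbociclib inhibits the kinases CDK4 and CDK6, and the comparison asks where SMAD2 is found with and without it.

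The sequences just upstream of 3 of the genes show what kind of DNA lies at their starts. SMAD4 and SMAD5 are shown because they held the strongest start summits among the 5 loci, and SMAD3 because the libraries differed there. Each line holds the 250 bases before the RefSeq transcription start on GRCh38.p14, at chr18:51029963-51030212, plus strand, chr5:136132595-136132844, plus strand and chr15:67065352-67065601, plus strand. For SMAD3, which has 5 start windows in RefSeq, the outermost is shown. Capitals mark AGAC, the core of the SMAD binding element, or its reverse complement GTCT, and the GC-rich SMAD motif GGCGC or its reverse complement GCGCC.
SMAD4: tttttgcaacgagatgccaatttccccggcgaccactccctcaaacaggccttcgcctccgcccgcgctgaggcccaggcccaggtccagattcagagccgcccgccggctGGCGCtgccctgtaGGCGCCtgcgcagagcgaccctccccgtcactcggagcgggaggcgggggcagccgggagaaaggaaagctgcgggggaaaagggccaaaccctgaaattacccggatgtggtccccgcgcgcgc
SMAD5: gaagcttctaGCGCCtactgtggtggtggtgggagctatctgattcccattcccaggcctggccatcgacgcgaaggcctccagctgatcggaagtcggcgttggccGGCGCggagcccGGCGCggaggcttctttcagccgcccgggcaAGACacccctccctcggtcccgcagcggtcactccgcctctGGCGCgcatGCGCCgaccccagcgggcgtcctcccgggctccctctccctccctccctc
SMAD3: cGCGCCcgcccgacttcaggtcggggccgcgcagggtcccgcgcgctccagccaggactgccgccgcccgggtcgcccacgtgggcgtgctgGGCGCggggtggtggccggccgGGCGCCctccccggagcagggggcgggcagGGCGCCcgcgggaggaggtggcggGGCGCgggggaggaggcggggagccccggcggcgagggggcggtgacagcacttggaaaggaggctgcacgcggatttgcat

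In the windows shown, GGCGC was found on either strand at 3 sites upstream of SMAD4, 5 of SMAD5 and 7 of SMAD3, where a run of GGCGCC counts as 2 sites. Of the 35116 windows of 250 bases upstream of RefSeq starts, 44.5% held GGCGC. AGAC was found at 1 site upstream of SMAD5 and at 0 sites in the windows of SMAD4 and SMAD3 shown, against at least 1 site in 77.5% of all windows. The palindrome GTCTAGAC, whose last 4 letters are an AGAC, and the AP-1 motif TGANTCA were in none of these 3 windows, and in 0.182% and 6.57% of all windows. GC content was 68.4%, 70.4% and 80.8% upstream of SMAD4, SMAD5 and SMAD3, against a median of 58.0%. The other 4 SMAD3 windows held 0, 2, 2 and 5 AGAC sites and 0 GGCGC sites, with a GC content of 44.8% to 53.6%. The window at 44.8% also held 1 TGANTCA site. For SMAD2 and SMAD1, not shown, the outermost windows held 5 and 0 GGCGC sites and 1 and 2 AGAC sites. Their GC content was 78.4% and 41.2%, and the SMAD1 window also held 1 TGANTCA site. The other SMAD2 window held 5 GGCGC sites, and the other SMAD1 windows held 1, 3, 7 and 5. The sequences are on another build than the summits, so the place of a summit within them was not determined, and a match is not a measured binding site.

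SMAD4, the common partner, had the strongest start summit of the 5 loci and no summit over 2 kb from the 5′ edge. The summits lay at 48556587 and 48556576 in palbociclib replicates 1 and 2, against 48556626 and 48556482 in activin replicates 1 and 2. Their scores, read as the −log10 q that the peak caller gave against the input, were 124 and 134 in the palbociclib lists, against 63.7 and 69.1 in the activin lists. A score is a value of its own list, so it is set here by the share of the list at or above it. The SMAD4 summit stood in the highest 5.83% and 4.24% of the palbociclib lists, against the highest 10.2% and 8.80% of the activin lists. Palbociclib replicate 1 listed another, weaker summit 558 bp upstream, which no other library had.

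SMAD5, which relays bone morphogenetic protein signals, carried a start summit of similar standing. The 4 summits lay within 57 bp, at 0.388 and 0.444 kb downstream of the 5′ edge of the span in the palbociclib libraries, against 0.430 and 0.445 kb in the activin libraries. They stood in the highest 6.19% and 5.34% of the palbociclib lists, against the highest 10.6% and 13.3% of the activin lists. A second region, 1.13 and 1.30 kb from the edge, was listed in each palbociclib library but in no activin library, 687 bp from the nearest activin summit. It was weak, in the highest 87.1% and 92.3% of those lists. Its ranks, 54847 and 60198, lay past the end of both activin lists, which held 51535 and 54243 summits. In lists of equal length it dropped out. Past the 3′ end of the gene, palbociclib replicate 2 and activin replicate 2 each listed 1 weak summit, 1109 bp apart.

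**Figure D1:**
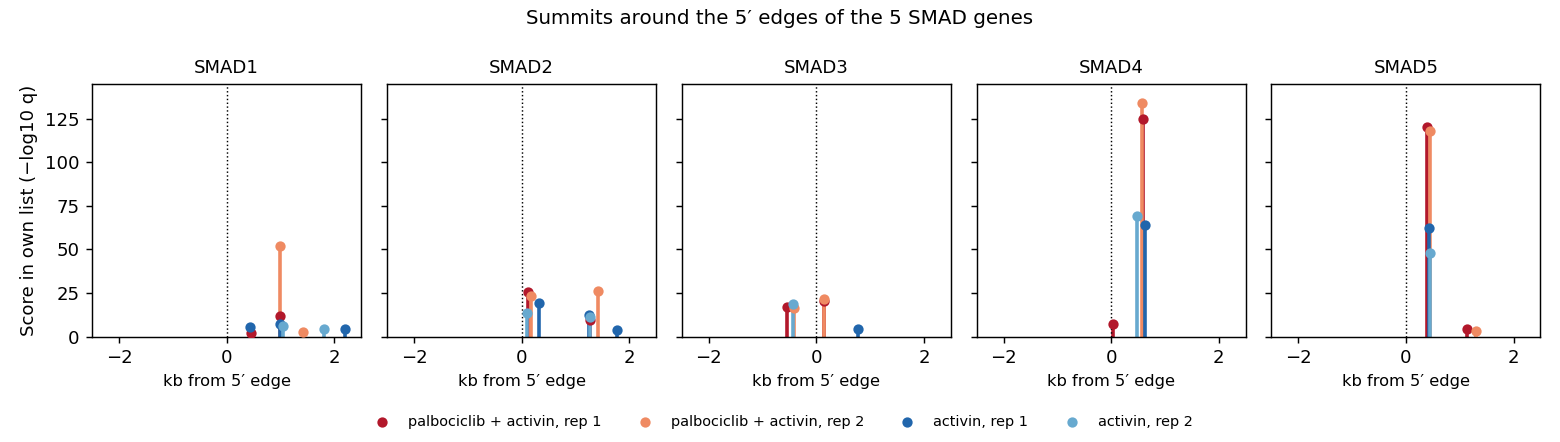
Scores (−log10 q, y axis) of summits in their own lists, against distance from the 5′ edge of the gene span (kb, positive inwards). There is 1 panel per gene and 1 colour per library. SMAD4 and SMAD5 each show 1 tall summit per library within 1 kb of the edge, while SMAD1, SMAD2 and SMAD3 show lower ones; heights of different colours come from different lists and are not on 1 scale.

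SMAD2, the gene of the immunoprecipitated protein itself, showed a pair of shared start regions of intermediate standing. The gene runs on the minus strand. The first region, at 45457683 to 45457891, stood in the highest 25.5% and 24.7% of the palbociclib lists, against 30.2% and 34.6% of the activin lists. The palbociclib lists were longer, and by rank the treatments overlapped there, at 16031 and 16117 with palbociclib, against 15588 and 18747 in the activin lists. The second region, at 45456576 to 45456749, stood in the highest 48.7% and 23.0% of the palbociclib lists, against 41.0% and 40.3% of the activin lists. The spread between the palbociclib replicates at the second region was wider than the gap between treatments. Each library listed 3 summits at this locus, and the third differed from library to library. In activin replicate 1 it lay 1.78 kb into the gene, in palbociclib replicate 1 it lay 13.7 kb into the gene, and in palbociclib replicate 2 and activin replicate 2 it lay 16.9 and 16.6 kb past the 3′ end.

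SMAD1, the other gene of the bone morphogenetic protein branch, had 1 shared start region. This region at 146402989 to 146403050 stood in the highest 41.3% and 14.0% of the palbociclib lists, against 60.1% and 60.0% of the activin lists. It stood highest in palbociclib replicate 2, with a score of 52.2 in that list, while palbociclib replicate 1 scored 12.03 in its own. The other SMAD1 summits lay within 2.2 kb of the 5′ edge and stood in the highest 74.7% or lower of their lists. The rest of the SMAD1 span, and its 20 kb flanks, held 0 summits in every library.

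SMAD3, which is activated with SMAD2 by the same receptors, was the densest locus and the only one of the 5 with shared regions over 2 kb from its 5′ edge. It held 11 and 10 summits in the palbociclib libraries, against 10 and 10 in the activin libraries, or 41 of the 75 summits (54.7%). Per 100 kb this was 6.47 and 5.88 in the palbociclib libraries, against 5.88 and 5.88 in the activin libraries. Over all 29446 tiles of 100 kb of the genome, the 90th percentile was 6 and 6 summits in the palbociclib lists, against 5 and 5 in the activin lists.

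Of 7 inner regions of SMAD3, 4 were shared by all libraries and 3 were found in 1 library each. All 4 libraries had a summit near 60.1 kb and near 61.6 kb from the 5′ edge, and again near 81.5 kb and 82.8 kb. The members of the pairs were 1.50 kb and 1.26 kb apart. The region at 67440752 to 67440822 stood highest of the 4 in the palbociclib lists, in the highest 24.6% and 26.7%, against 46.2% and 33.2% of the activin lists. Its neighbour at 67439513 to 67439638 stood in the highest 74.9% and 52.8% of the palbociclib lists, against 59.9% and 41.6% of the activin lists. At 67417993 to 67418088 the standing was the highest 55.9% and 41.3% in the palbociclib lists, against 63.7% and 25.6% in the activin lists. At 67419541 to 67419623 it was 42.6% and 35.2% in the palbociclib lists, against 38.0% and 55.6% in the activin lists. In both of these the groups overlapped.

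The lists differed at the start of SMAD3. Both palbociclib libraries listed a summit 0.138 and 0.144 kb past the 5′ edge, in the highest 29.8% and 26.5% of their lists, which neither activin library had within 200 bp. The nearest activin summit lay 564 bp away. A second region, at -540 to -413 bp from the edge, was listed in both palbociclib libraries and in activin replicate 2, at 33.0%, 31.1% and 27.8% of those lists. Activin replicate 1 listed a weak summit 0.769 kb past the edge, in the highest 87.2% of its list. Within 2 kb of the SMAD3 edge the count was 2 and 2 in the palbociclib libraries, against 1 and 1 in the activin libraries. The exact two-sided permutation p was 0.333, the smallest that 2 against 2 libraries allow. The share of all gene starts with such a separation was not computed.

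At the 3′ end of SMAD3 each library listed 4 summits, but few coincided. They lay 126 to 136 kb from the 5′ edge and formed 9 regions, of which 0 held all 4 libraries, 3 held 3 libraries and 5 held 1. The region that stood highest in the palbociclib lists, at 67489466 to 67489492, was found in both palbociclib libraries alone, in the highest 28.9% and 37.5% of their lists, 541 bp from the nearest activin summit. Chained at gaps of up to 1000 bp, the same summits formed 4 regions, of which 1 held every library. The next protein-coding gene on this side, by gene order in RefSeq, is AAGAB.

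**Figure D2:**
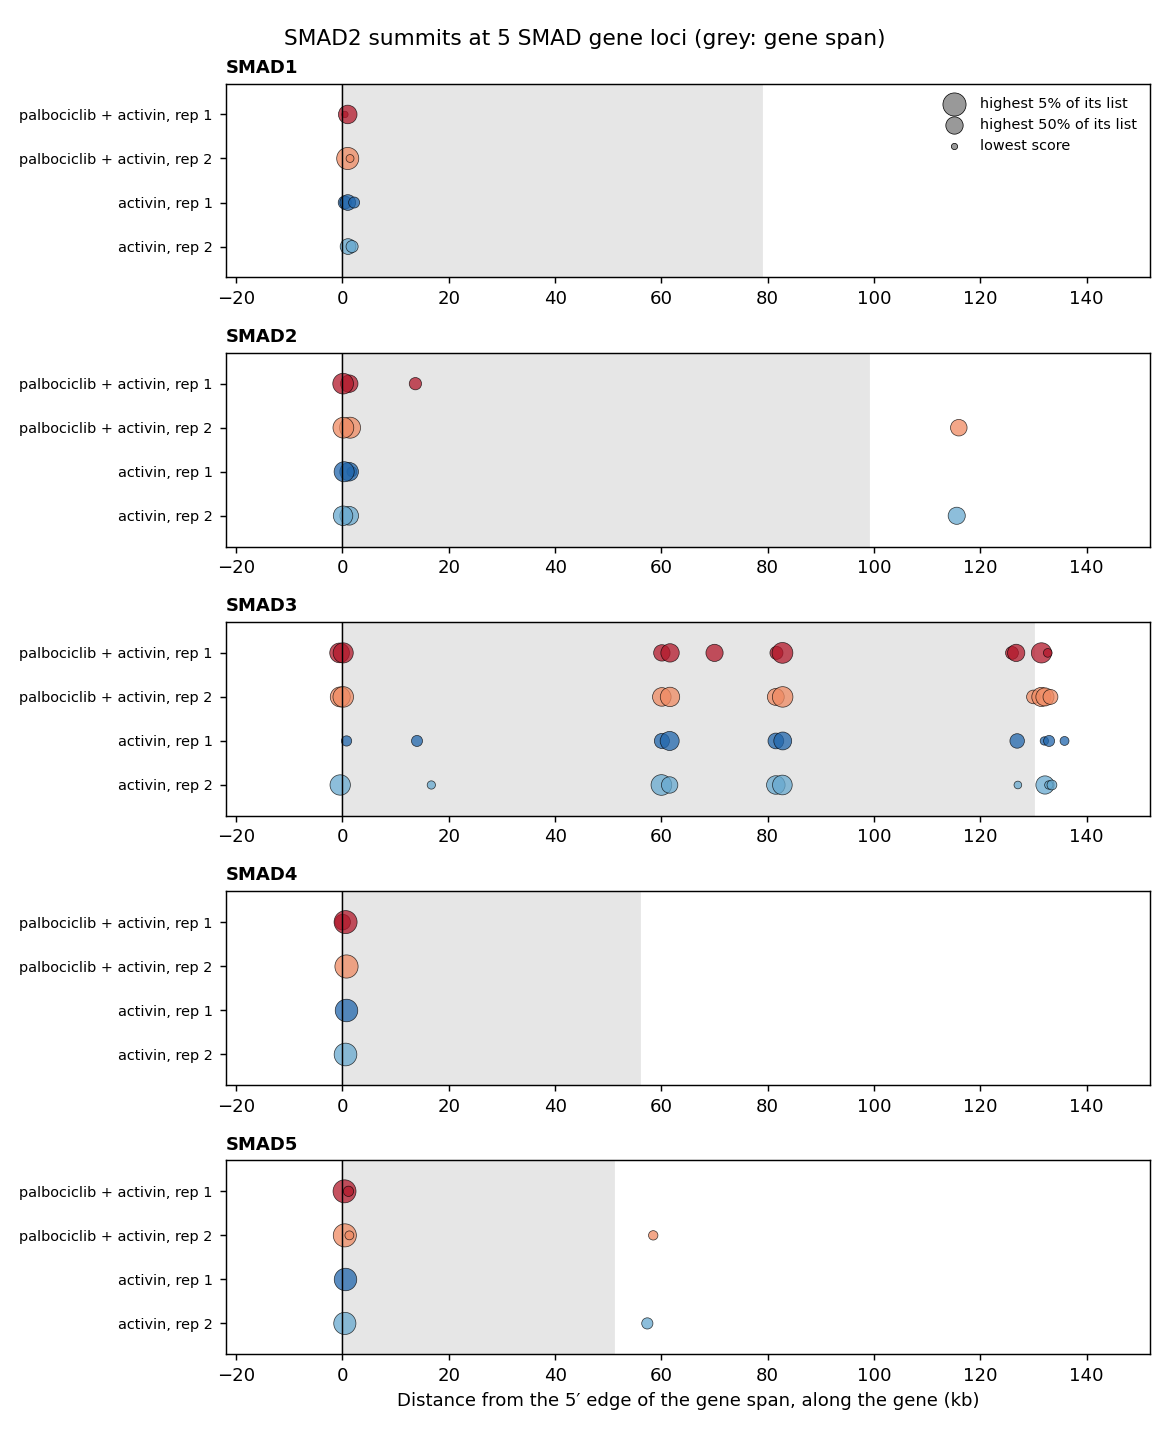
Summits of the 4 libraries (rows) along each gene, by distance from the 5′ edge of its span (kb); grey marks the span, and larger points stand higher in their own list. Summits at SMAD1, SMAD4 and SMAD5 gather at the 5′ edge, while SMAD3 has further groups near 60.1, 82.8 and 126 to 136 kb.

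The number of summits at the 5 loci together was slightly higher with palbociclib, by less than the lists as a whole. It was 20 and 19 in the palbociclib libraries, against 18 and 18 in the activin libraries, a 1.08-fold ratio of means (19.5 ± 0.7 and 18.0 ± 0.0, SD, n = 2 each; exact two-sided permutation p = 0.333). The whole lists held 62960 and 65207 summits in the palbociclib libraries, against 51535 and 54243 in the activin libraries, a 1.21-fold ratio. As a share, the loci took 3.18 and 2.91 of every 10000 summits in the palbociclib lists, against 3.49 and 3.32 in the activin lists (exact permutation p = 0.333). Both directions turned under another choice of summits. With every list trimmed to the 51535 highest summits the count was 17 and 16 in the palbociclib libraries, against 18 and 17 in the activin libraries. With a score of at least 5 it was 16 and 16 in the palbociclib libraries, against 11 and 12 in the activin libraries, and the share was then higher in the palbociclib libraries. Read numbers are not given in the lists, and list length also varies with depth.

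With the whole lists and 20 kb flanks, the counts of the treatments overlapped or tied at each of the 5 loci. SMAD5 held 2 and 3 summits in the palbociclib libraries, against 1 and 2 in the activin libraries (exact permutation p = 0.667). SMAD4 held 2 and 1 summits in the palbociclib libraries, against 1 and 1 in the activin libraries, and SMAD1 held 2 and 2 in the palbociclib libraries, against 3 and 2 in the activin libraries (exact permutation p = 1 for each). With all 4 libraries kept, 3 loci did separate the treatments under another score, list length or flank (exact permutation p = 0.333 for each). With a score of at least 5, SMAD3 held 10 and 10 summits in the palbociclib libraries, against 5 and 6 in the activin libraries. In lists of equal length, SMAD1 held 1 and 1 in the palbociclib libraries, against 3 and 2 in the activin libraries. Without flanks, SMAD5 held 2 and 2 in the palbociclib libraries, against 1 and 1 in the activin libraries. The second palbociclib summit there was the weak one ranked past the end of both activin lists. In the whole lists, 11.1% of all tiles of 100 kb had both palbociclib counts above both activin counts and 1.99% had both below. Such shares were not computed for the other settings, so the separations under them have no background beside them. Per 100 kb the 5 loci held 3.25 and 3.09 summits in the palbociclib libraries, against 2.93 and 2.93 in the activin libraries. The mean over all tiles was 2.14 and 2.21 in the palbociclib libraries, against 1.75 and 1.84 in the activin libraries.

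Summits were also counted by distance from the 5′ edges. Within 2 kb of the 5 edges the palbociclib libraries listed 10 and 9 summits, against 8 and 7 in the activin libraries (exact permutation p = 0.333). This 1.27-fold ratio of means was near the 1.21-fold ratio of the whole lists. Other gene starts were not counted under any setting, so no share over all starts can be set beside these counts. Elsewhere in the loci the palbociclib libraries listed 10 and 10, against 10 and 11 in the activin libraries (exact permutation p = 1). The separation near the edges was not seen within 1 kb, with 8 and 6 summits in the palbociclib libraries, against 6 and 4 in the activin libraries, or within 5 kb, with 10 and 9 in the palbociclib libraries, against 9 and 7 in the activin libraries (exact permutation p = 0.667 for each). In lists of equal length the mean number near the edges was the same in both treatments (log2 ratio 0). Elsewhere in the loci those lists held fewer summits with palbociclib, at 9 and 9, against 10 and 10 in the activin libraries (exact permutation p = 0.333). With a score of at least 5, the number was higher with palbociclib in both places (exact permutation p = 0.333 for each). Near the edges it was 8 and 7 in the palbociclib libraries, against 6 and 6 in the activin libraries (log2 ratio 0.32). Elsewhere it was 8 and 9 in the palbociclib libraries, against 5 and 6 in the activin libraries (log2 ratio 0.63). The whole lists cut at that score were also longer with palbociclib, at 49309 and 49412 summits, against 40352 and 39841 in the activin libraries.

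**Figure D3:**
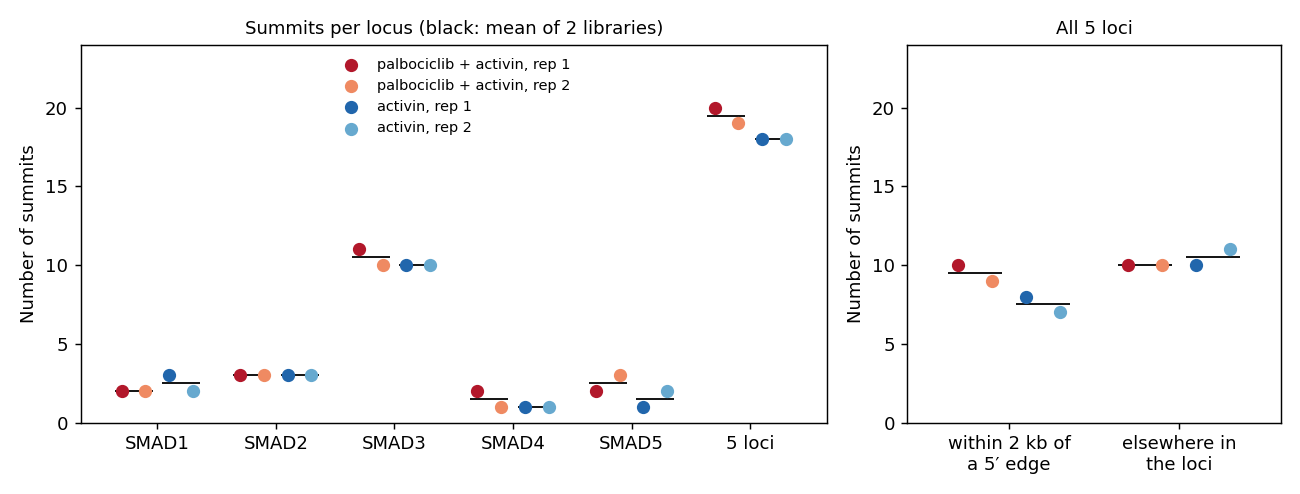
Number of summits per library at each locus and at all 5 (left), and split by distance from the 5′ edges (right), with palbociclib libraries in red tones, activin libraries in blue tones and the mean of 2 libraries as a black line. The treatments are apart, by 1 summit between the nearest libraries, for all 5 loci together and within the 2 kb zone plotted, but not within 1 or 5 kb of the edges.

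Of the 36 regions, 9 (25.0%) held a summit in all 4 libraries, beside 20.4% of all regions in the series. They were 1 at SMAD1, 2 at SMAD2, 4 at SMAD3, 1 at SMAD4 and 1 at SMAD5. Their summits spanned a median of 95 bp, against 76 bp over all shared regions. Regions of both palbociclib libraries alone numbered 3 (8.33%), beside 5.29% of all regions. They were the SMAD3 start, the SMAD3 3′ end and the weak SMAD5 region described above. In lists of equal length they numbered 2, without the SMAD5 region. Regions of both activin libraries alone numbered 0, beside 2.22% of all regions. A further 19 regions (52.8%) were found in 1 library, beside 50.8% of all regions. A summit of the loci had a counterpart within 200 bp in the other library of its treatment at 63.9% ± 3.5 (SD over 4 directed pairs), and in a library of the other treatment at 57.4% ± 3.4 (8 directed pairs). For whole lists these values were 56.9% ± 1.5 and 55.1% ± 5.8. Pairs share libraries, and each pair is counted in both directions. Each percentage rests on 18 to 20 summits, with exact Clopper-Pearson 95% intervals such as 40.8% to 84.6% for palbociclib replicate 1 in replicate 2. The intervals treat summits as independent, though some lie close together, and do not measure the spread between libraries.

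To set the treatments side by side without the unequal list lengths, the regions held by all 4 libraries were ranked within each library, 23476 regions in each. The SMAD4 start stood at 14.6% and 10.9% from the top in the palbociclib libraries, against 20.4% and 18.6% in the activin libraries. The SMAD5 start stood at 15.4% and 13.6% in the palbociclib libraries, against 21.1% and 27.4% in the activin libraries. Both starts thus ranked higher in each palbociclib library than in either activin library, with differences in mean rank, palbociclib minus activin, of -6.77 and -9.72 percentage points (exact permutation p = 0.333 for each). The SMAD5 difference was -5.84 points when activin replicate 2 was left out. The SMAD1 region stood at 81.2% and 34.3% in the palbociclib libraries, against 85.3% and 86.8% in the activin libraries, a difference of -28.3 points. Leaving out palbociclib replicate 2 gave -5.67 points, and leaving out palbociclib replicate 1 gave -51.7 points.

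At SMAD3 the neighbouring regions near 82.8 and 81.5 kb differed in sign, the first by a narrow margin. The region near 82.8 kb stood at 56.9% and 61.5% in the palbociclib libraries, against 74.8% and 61.7% in the activin libraries. That difference of -9.07 points was -2.28 when activin replicate 1 was left out and -15.7 when activin replicate 2 was, and the treatments overlapped there in lists of equal length and with a gap of 100 bp (exact permutation p = 0.667 for each). The region near 81.5 kb stood at 96.5% and 88.8% in the palbociclib libraries, against 85.2% and 72.2% in the activin libraries, and so ranked lower with palbociclib by 14.0 points (8.83 without activin replicate 2 and 23.7 without activin replicate 1). In the other 4 shared regions, both of SMAD2 and the first pair of SMAD3, the treatments overlapped. In all, 4 of the 9 ranked higher in both palbociclib libraries and 1 lower, beside 20.2% and 19.8% of all shared regions. With 2 libraries a treatment no test of a single region can reach 0.05.

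**Figure D4:**
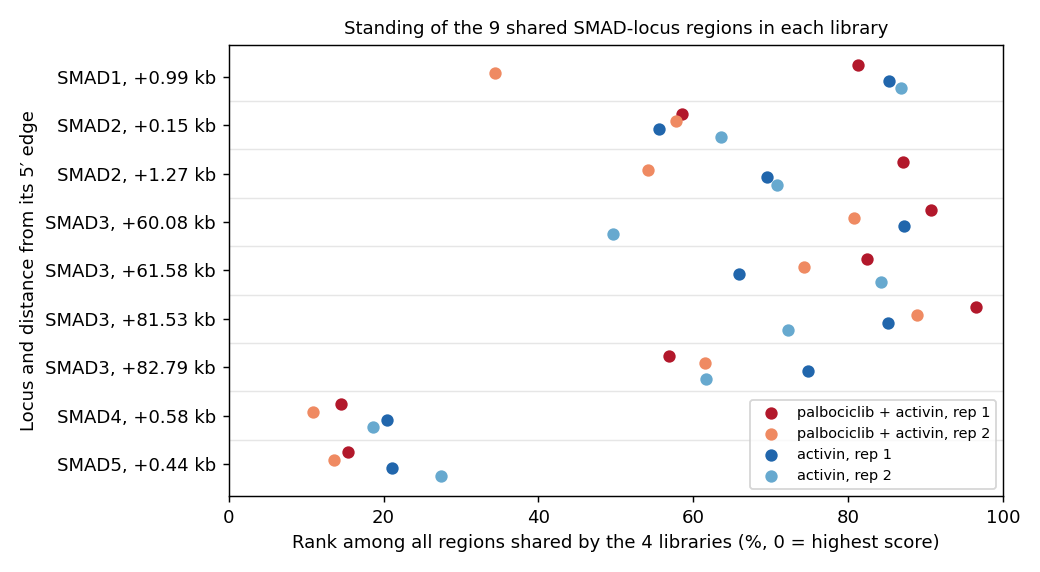
Rank of each of the 9 shared SMAD-locus regions among the 23476 regions shared by the 4 libraries (%, lower means a higher score), with 1 point per library. The SMAD4 and SMAD5 starts stand between 10.9% and 27.4% in every library, and the other 7 regions between 34.3% and 96.5%.

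The limits of the loci did not pass through a group of summits. The outermost summit counted lay 16.9 kb past the 3′ end of SMAD2, in palbociclib replicate 2. The nearest ones left out were single summits 21.3 kb past SMAD1 in activin replicate 2, 21.4 kb past SMAD3 in activin replicate 1 and 25.7 kb past SMAD5 in palbociclib replicate 2.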

How the data were processed

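SMAD2 ChIP-seq summits of 4 libraries were analysed. The submitters' processing notes name the build hg19 and the tools MACS2 2.0.9, Bowtie 1.1.0 and Picard; order, filters and settings are not stated there. The authors deposited 1 summit list per library with a score per summit, read as −log10 q against the input because the lowest, 1.31, is close to the 1.30 of a q of 0.05. Positions on chromosomes 1 to 22 and on X were made 1-based, ranked within their list and chained into regions at gaps of at most 200 bp. Depth is unknown, and the lack of a summit is not the lack of SMAD2. Groups of 2 were compared by exact two-sided permutation tests, whose smallest p is 0.333. The members, lists and tests were chosen with earlier results of these data known. The 2-kb start zone, the parts of SMAD3, the motifs and the ranks among shared regions were added after the summits were seen. All 5 genes are named, with, by rule, up to 3 shared and 2 treatment-specific regions per locus by best worst rank and the summit nearest the 5′ edge; the other regions named were chosen after their values were seen. No annotation on hg19 was used, so exons and the other SMAD genes were not analysed here. RefSeq on GRCh38.p14 gave promoter sequences, strands and gene order, and all 5 symbols matched. Region calls were tested on simulated data with regions at least 2 kb apart, which does not cover the closer regions of these loci. Alternatives were minimum scores, list lengths, flanks, gaps, matching distances, leaving out single libraries and a replicate block. Python 3.11.15, numpy 2.4.6, pandas 2.3.3, scipy 1.17.1 and matplotlib 3.10.9 were used.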

Additional observations from a re-analysis of the deposited data

How the results depend on the processing

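The log2 ratio of summits at the 5 loci (0.12) kept its direction under 11 of 12 alternatives, at 0.08 to 0.15 without each library, and turned to -0.085 in lists of equal length. The share of the list (log2 ratio -0.16) kept its direction under 10 of 12, at -0.23 to -0.10 without each library, and turned to 0.18 with a score of at least 5 and to 0.32 among the highest 10000 summits. At SMAD5 the count (0.74) turned to -0.58 in lists of equal length. Away from the 5′ edges the ratio (-0.07) turned to 0.63 with a score of at least 5. Shared regions (9) fell to 2 among the highest 10000 summits, the SMAD4 and SMAD5 starts, and were 9 to 11 without each library. Regions of both palbociclib libraries alone (3) were 0 among the highest 10000 summits and with a gap of 1000 bp, and 3 to 8 without each library. Regions of both activin libraries alone (0) were 1 at equal list length and with a gap of 100 bp, and 1 to 6 without each library, since a treatment reduced to 1 library is then judged by that library alone. Shared regions ranked higher with palbociclib (4) were 2 among the highest 10000 summits and 4 to 6 without each library. Those ranked lower (1) were 0 there and with a gap of 100 bp, and 1 to 4 without each library.

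Single rank differences, in percentage points, turned at the first SMAD2 region (-1.40; -5.01 to 2.55 without single libraries, turning without activin replicate 2), the second SMAD2 region (0.45; -1.70 with a score of at least 5, -3.57 with a gap of 1000 bp, -15.8 to 17.1 without single libraries, turning without palbociclib replicate 1), the first inner SMAD3 region (17.3; -2.41 to 36.1 without single libraries, turning without activin replicate 2) and the second (3.32; -6.64 to 12.8 without single libraries, turning without palbociclib replicate 1 at -0.98 and without activin replicate 1). The cause of these reversals was not tested. Summits found again in the same treatment (63.9%) and in the other (57.4%) moved to 72.3% and 74.7% with a score of at least 5, and both to 91.7% among the highest 10000. Within 100, 500 and 1000 bp they were 45.3%, 70.8% and 81.3% in the same treatment, and 42.8%, 68.1% and 84.0% in the other.

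Ranks over the shared regions gave no sign that libraries of the same number vary together (correlation -0.04). The libraries were not paired by number. Ranks cannot show a shift of a whole list, and the median scores of the lists did go by number. They were 9.41 and 9.46 in palbociclib and activin replicate 1, against 8.39 and 8.34 in replicate 2. The cause was not tested. With the replicate block, the log2 ratio was 0.12 for the count and -0.16 for the share. The mean number of regions in 1 library of a pair was then 8.0 for palbociclib alone and 6.5 for activin alone, and 11.5 for both. With counts this small and depth unknown, a difference of 1 or 2 summits cannot be told from the replicate spread.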

Other observations

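In a search of up to 60 kb from the spans, the highest-ranked summits near SMAD1 and SMAD3 lay outside these loci, about 59 kb past the 3′ ends and close to the limit of the search. Past SMAD3, on the side where AAGAB is the next protein-coding gene by RefSeq order, all 4 libraries listed a summit between 67546891 and 67546972 on chromosome 15. It stood in the highest 2.23% and 4.29% of the palbociclib lists, against 7.89% and 4.03% of the activin lists, higher in every list than any summit of the SMAD3 locus. Past SMAD1, on the side of MMAA, all 4 libraries listed a summit between 146540306 and 146540451 on chromosome 4. It stood in the highest 8.56% and 7.67% of the palbociclib lists, against 10.8% and 15.8% of the activin lists. Whether these summits lie at the starts of those genes was not tested, because no annotation on hg19 was used.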
